A study of Mus musculus with 18 samples.

Results

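The BCL-2 family decides whether a cell opens its mitochondrial outer membrane and dies, and 10 of its genes were followed here across hypoxic natural killer (NK) cells labelled as lacking Hif1a, Ahr or both. The genes were taken by symbol from the 56953 gene identifiers of the deposited count tables: Bcl2, Bcl2l1, Mcl1, Bcl2a1b, Bax, Bak1, Bcl2l11, Pmaip1, Bbc3 and Bid. All 10 were found, and all 10 passed the filter on low counts that left 16743 genes for testing. NK cells, the innate killer lymphocytes, were taken from mouse spleen and kept in hypoxia, at 1% oxygen, over 7 days with human interleukin 2 (IL-2) at 1700 U/ml. Messenger RNA was sequenced from 6 groups of 3 biological replicates, which makes 18 libraries. Hif1a KO, Ahr KO and Hif1a Ahr KO cells carried Ncr1-iCre and were fl/fl (both alleles flanked by loxP sites) for Hif1a, for Ahr or for Hif1a together with Ahr. Hif1a flox, Ahr flox and Hif1a Ahr flox cells had the same alleles without Cre. Ncr1-iCre acts in cells that express Ncr1, the gene of the NK receptor NKp46. Since no group had Cre alone, an effect of Cre and one of the deletion cannot be told apart within a line. The age, sex and number of mice behind a replicate are not given in the sources used here, so p-values measure the spread between these samples.

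BCL-2 proteins fall into guardians, executioners and sensors. The guardians BCL-2, BCL-XL, MCL-1 and A1 hold the pore-forming proteins BAX and BAK in check, and the BH3-only proteins BIM, NOXA, PUMA and BID relieve that hold or activate BAX and BAK directly. In mouse NK cells MCL-1 is needed for survival, and the cytokines IL-15 and IL-2 keep NK cells alive in part by sustaining guardians and restraining BIM. Hif1a encodes the part of HIF-1 that is degraded when oxygen is plentiful, and Ahr encodes the aryl hydrocarbon receptor, a sensor of small molecules. Both proteins pair with the same partner, ARNT.

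Total counts per library ran from 54420649 to 55732940, with 24103 to 25669 genes above 0. The least abundant of the 10 genes, Pmaip1, still had 439 to 1418 counts per library, so the spread between replicates rather than depth set the precision. Gene-level Hif1a counts were higher in both groups with a Hif1a deletion, and Ahr was called in no comparison. These sums over whole genes include transcripts without the deleted exon and so check neither deletion. The cells carried the NK markers Ncr1, Prf1 and Gzmb, with a summed level of 9 NK markers of 14092 to 15942 CPM in Hif1a KO and 20448 to 24765 CPM in Hif1a flox libraries. That sum was 25564 to 30294 CPM in Ahr KO and 18913 to 25779 CPM in Ahr flox libraries, and 19216 to 20347 CPM in Hif1a Ahr KO and 18627 to 23732 CPM in Hif1a Ahr flox libraries. Gzmb made up most of this sum, and the single NK markers did not move together. In Hif1a KO cells 3 of the 9 rose (Ncr1, Klrk1 and Tbx21) and 4 fell (Gzmb, Prf1, Eomes and Il2rb). Ncr1 and Eomes rose in Ahr KO cells, and Ncr1, Klrb1c and Eomes in Hif1a Ahr KO cells, with no marker called lower there. Ncr1 rose in all 3 lines, by 0.92, 0.97 and 1.06 (log2). The sum of 6 T cell markers was lower in every KO group: 11.7 to 24.6 CPM in Hif1a KO and 64.1 to 99.8 CPM in Hif1a flox libraries, 40.4 to 44.4 CPM in Ahr KO and 90.5 to 112 CPM in Ahr flox libraries, and 11.1 to 41.4 CPM in Hif1a Ahr KO and 118 to 131 CPM in Hif1a Ahr flox libraries. Cd3d and Cd3g were the 2 of 6 T cell markers that passed the test, lower in all 3 comparisons. The median log2 change over the 6 was -0.62 in Hif1a KO and -0.39 in Hif1a Ahr KO cells. In Ahr KO cells that median was 0.79, so the 6 did not all fall there. The 3 B cell markers summed to at most 0.109 CPM and the 5 neutrophil markers to at most 4.99 CPM in any library, with Elane at 0 in Hif1a KO and Hif1a Ahr KO cells. Of the 4 neutrophil markers tested, 3 fell in Hif1a KO cells and 4 in Hif1a Ahr KO cells, while none was called in Ahr KO cells. Of 4 tested macrophage and monocyte markers, Csf1r, Lyz2 and Cd14 fell in Hif1a KO cells (log2 changes -3.24, -3.26 and -1.89), all to means under 2 CPM, and Cd68 rose by 0.75. Cd68 fell by 1.04 in Ahr KO cells, and Csf1r and Lyz2 fell in Hif1a Ahr KO cells (-2.40 and -3.37). Markers of other innate lymphoid cells summed to 19 to 28.2 CPM over all 18 libraries, nearly all of it Gata3, which was called in no line. Of the 4 markers in that list, 1 rose in Hif1a KO cells, and 1 rose and 1 fell in Hif1a Ahr KO cells. In bulk RNA, fewer cells of a type and less RNA per cell cannot be told apart, and the part of these markers in the results on BCL-2 genes was not tested.

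CPM values below are estimated counts scaled to a common library size with trimmed mean of M values (TMM) factors. Averaged over all 18 libraries and divided by the length of each gene's longest annotated transcript, Bax stood highest with 114 CPM per kb. Mcl1 followed with 78.7, Bcl2 with 55.3, Bak1 with 50.1 and Bcl2l11 with 34.3 CPM per kb. Bcl2l1 had 30.0, Bid 26.1 and Bcl2a1b 25.0 CPM per kb, while Bbc3 and Pmaip1 were lowest with 11.2 and 5.64 CPM per kb. With the median transcript length in place of the longest, Mcl1 came before Bax (126 against 119 CPM per kb) and the order of the other 8 genes stayed. Across the 18 libraries Bcl2l11 varied most, 3.5-fold between its lowest and highest library, and Pmaip1 2.93-fold. Bcl2a1b and Bid spanned 2.03-fold and 2.02-fold, and the other 6 genes between 1.32-fold and 1.59-fold.

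**Figure D1:**
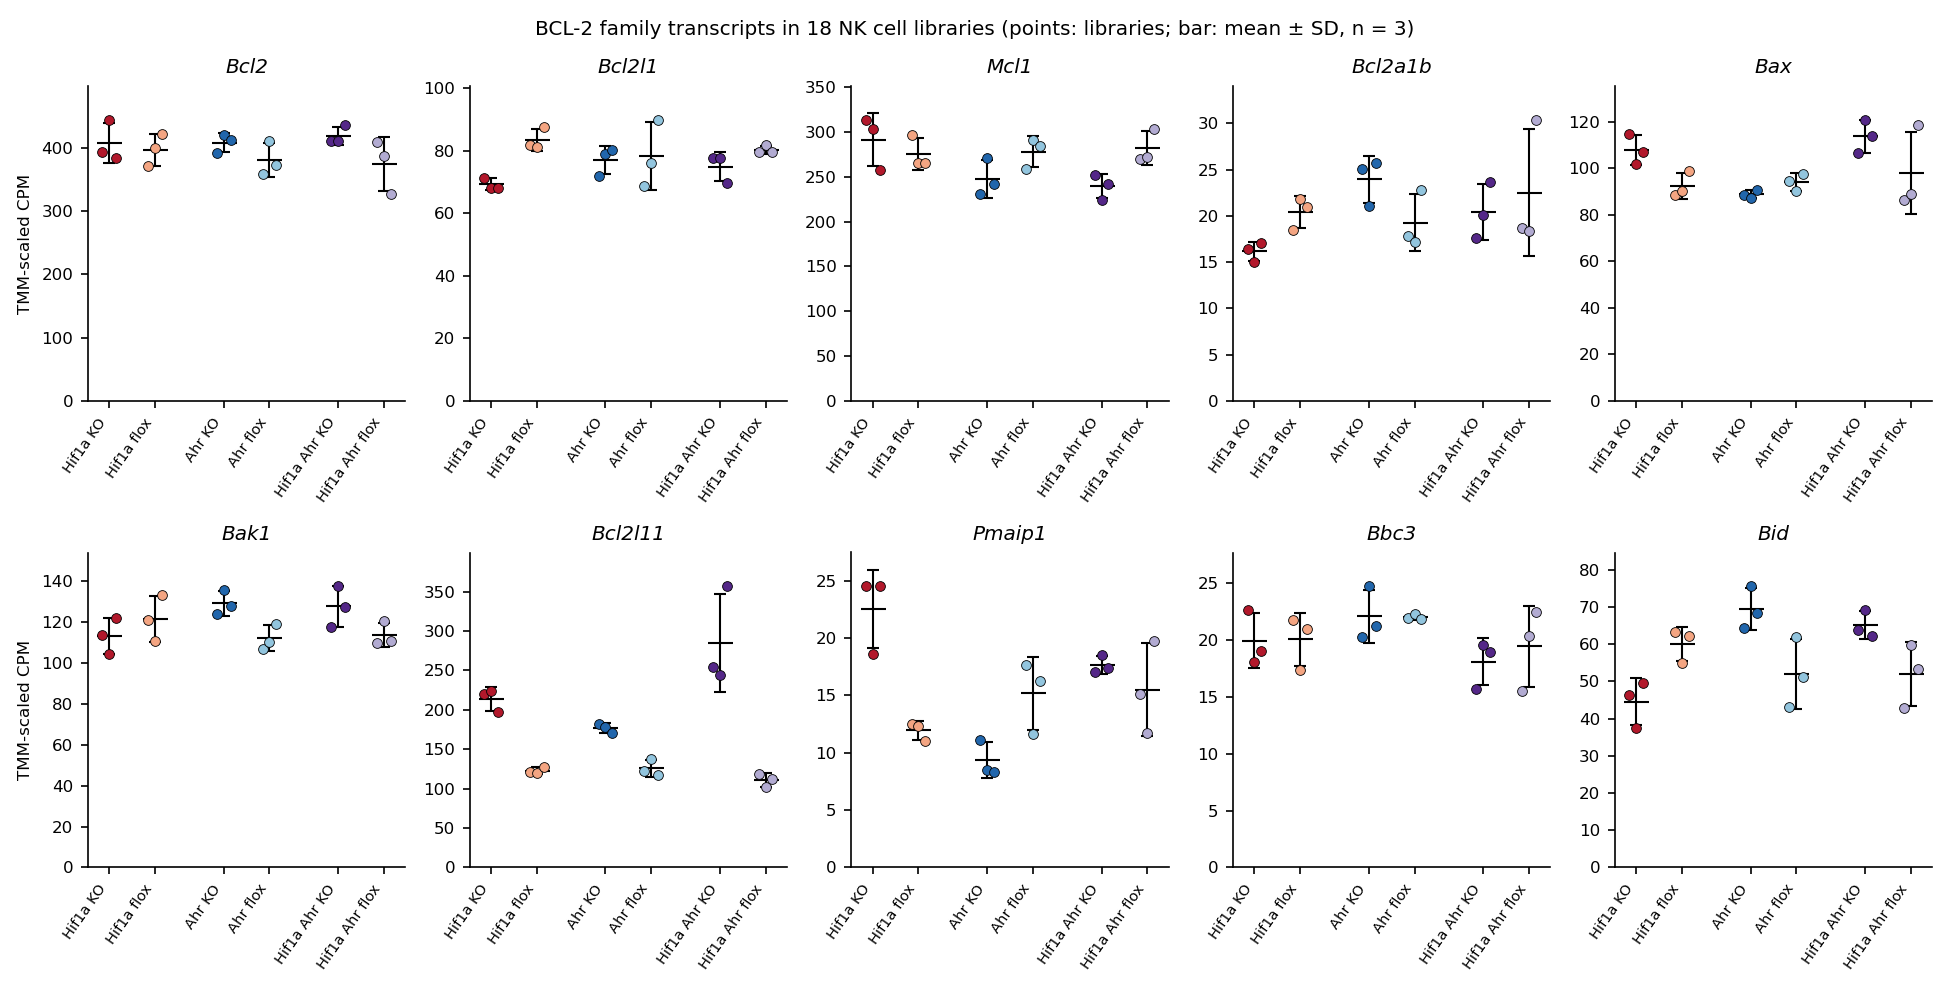
Level of each of the 10 BCL-2 family genes in TMM-scaled CPM (y axis, from 0), by group (x axis); points are libraries and bars the mean ± SD of 3. Bcl2l11 lies at 170.2 CPM or more in every KO library and at 137 CPM or less in every flox library, and Bcl2 stays between 327 and 444 CPM throughout.

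In each line the KO group was compared with its flox counterpart by edgeR's quasi-likelihood test, and a gene was called at a Benjamini-Hochberg adjusted p under 0.05 over all genes tested. In Hif1a KO cells 4 of the 10 genes were called, Bcl2l11 and Pmaip1 higher and Bcl2l1 and Bid lower, where 35.4% of all genes were called, 17.6% higher and 17.8% lower. These were 2948 higher and 2972 lower of 5920 genes. With libraries scaled by their totals alone, 4117 of 6273 called genes were higher. In Ahr KO cells 2 were called, Bcl2l11 higher and Pmaip1 lower, where 6.91% of all genes were called, 2.13% higher and 4.78% lower. That count and its background depended on single libraries. Without Ahr KO replicate 1 there were 2 members among 760 called genes, without Ahr KO replicate 2 there was 1 among 534, and without Ahr KO replicate 3 there was 1 among 679. Without Ahr flox replicate 1 there were 0 among 467 and without Ahr flox replicate 3 there were 0 among 558, while leaving out Ahr flox replicate 2 gave 3 among 1337. The Hif1a KO count of 4 became 2 without Hif1a flox replicate 3. In Hif1a Ahr KO cells 2 were called, Bcl2l11 higher and Mcl1 lower, where 31.3% of all genes were called, 14.8% higher and 16.5% lower, and the count became 1 without Hif1a Ahr KO replicate 2 or Hif1a Ahr KO replicate 3. The KO and flox libraries did not overlap for 6, 4 and 5 of the 10 genes in the Hif1a line, the Ahr line and the Hif1a Ahr line, where this held for 49.9%, 29% and 37.2% of all genes. The median size of the log2 change over the 10 genes was 0.246, 0.186 and 0.178 in these lines, against 0.264, 0.149 and 0.244 over all genes. The count of members called was thus close to the background in both lines with a Hif1a deletion, and in the Ahr line it rested on 2 genes. Bcl2l11 was the only 1 of the 10 called in all 3 lines.

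Bcl2l11 encodes BIM, the BH3-only protein that binds every guardian and can activate BAX and BAK. It was higher in all 3 KO groups, about 1.74-fold in Hif1a KO, 1.41-fold in Ahr KO and 2.57-fold in Hif1a Ahr KO cells. The gene (ENSMUSG00000027381) lies on chromosome 2. In Hif1a KO cells its 3 libraries held 220.3, 224 and 197 CPM, against 121, 120.0 and 128 CPM in Hif1a flox cells. Every Hif1a KO library lay well above every Hif1a flox library. The log2 change was 0.80 ± 0.11 (SE; 95% interval 0.57 to 1.03; adjusted p = 2.38e-05, edgeR). In Ahr KO cells the libraries held 182, 178 and 170.2 CPM, against 123, 137 and 117 CPM in Ahr flox cells. These groups did not overlap either, with a smaller gap. The log2 change was 0.49 ± 0.11 (SE; 0.26 to 0.73; adjusted p = 0.0108, edgeR), and it missed the threshold when Ahr flox replicate 1 (0.0590) or Ahr flox replicate 3 (0.0598) was left out. Libraries of Hif1a Ahr KO cells held 255, 244 and 357 CPM, against 119, 102 and 112 CPM in Hif1a Ahr flox cells. Replicate 3 of Hif1a Ahr KO was the highest of all 18 libraries, and the other Hif1a Ahr KO libraries were above all remaining ones. The log2 change of 1.36 ± 0.11 (SE; 1.13 to 1.60; adjusted p = 5.79e-08, edgeR) was 1.17 without that replicate (adjusted p = 1.64e-08). The 3 flox groups held similar levels, 123 ± 4.16, 126 ± 10.4 and 111 ± 8.58 CPM (SD, n = 3 each) in Hif1a flox, Ahr flox and Hif1a Ahr flox cells.

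The 250 bases upstream of the Bcl2l11 start are shown because HIF-1 and the aryl hydrocarbon receptor bind DNA with ARNT at short cores, ACGTG or GCGTG for HIF-1 and GCGTG for the receptor, and FOXO factors, known activators of Bcl2l11, bind GTAAACA. Sequences are from RefSeq, build GRCm38.p6, written 5′ to 3′ on the gene's strand. Capitals mark matches to these 3 motifs on either strand, so that CACGC stands for the second core on the opposite strand. The Bcl2l11 window, chr2:128125788-128126037 on the plus strand, held 3 GCGTG matches, 222, 203 and 146 bases before the start, and 1 GTAAACA match 227 bases before it, which overlaps the first GCGTG match. It held no ACGTG, and the window of a second annotated Bcl2l11 start held none of the 3 motifs. The window of Bnip3, chr7:138909507-138909756 on the minus strand, is set beside it because Bnip3, a relative of the BH3-only genes and a textbook HIF-1 target, fell in both groups with a Hif1a deletion. It held 3 GCGTG matches, 117, 99 and 35 bases before the start, and ACGTG on both strands of 1 palindrome.
Bcl2l11: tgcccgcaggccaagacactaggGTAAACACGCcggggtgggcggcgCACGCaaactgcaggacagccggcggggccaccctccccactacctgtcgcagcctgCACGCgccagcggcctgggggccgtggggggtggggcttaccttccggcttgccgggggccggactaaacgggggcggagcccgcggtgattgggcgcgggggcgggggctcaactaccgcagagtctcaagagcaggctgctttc
Bnip3: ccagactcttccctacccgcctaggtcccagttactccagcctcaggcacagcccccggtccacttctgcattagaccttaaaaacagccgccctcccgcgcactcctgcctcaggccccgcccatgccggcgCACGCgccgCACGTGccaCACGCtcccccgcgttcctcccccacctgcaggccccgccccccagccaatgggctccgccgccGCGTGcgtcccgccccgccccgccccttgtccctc
Among 32851 windows of this length upstream of annotated starts, 28.2% held GCGTG, 16.6% ACGTG and 3.2% GTAAACA, and 2.77% held GCGTG at least 3 times. Of the 9 members with a window, 4 held GCGTG, 2 ACGTG and 2 GTAAACA in any of their windows. Some members have several windows, so these counts of genes are not like the shares of single windows. Bbc3, called higher or lower in no line, held all 3 motifs over its 3 windows. Such matches are letters in a window and do not show that a factor bound there.

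Pmaip1 rose in Hif1a KO and fell in Ahr KO cells, while Bid fell in Hif1a KO cells and was called in neither other line. Pmaip1 (ENSMUSG00000024521, chromosome 18) encodes NOXA, which binds MCL-1 and A1 and promotes the loss of MCL-1. In Hif1a KO cells its libraries held 24.5, 18.6 and 24.5 CPM, against 12.5, 12.3 and 11 CPM in Hif1a flox cells. All Hif1a KO libraries were above all Hif1a flox libraries, and the log2 change was 0.92 ± 0.18 (SE; 0.53 to 1.30; adjusted p = 8.39e-04, edgeR). In Ahr KO cells the libraries held 11.1, 8.49 and 8.36 CPM, against 17.6, 11.6 and 16.3 CPM in Ahr flox cells. Here the KO libraries were the lower ones, but Ahr KO replicate 1 and Ahr flox replicate 2 nearly met. Pmaip1 fell by 0.70 ± 0.18 (log2, SE; adjusted p = 0.0284, edgeR), a call lost without Ahr KO replicate 2 (0.134), Ahr KO replicate 3 (0.113), Ahr flox replicate 1 (0.155) or Ahr flox replicate 3 (0.107) and with no filter on low counts (0.0914). Libraries of Hif1a Ahr KO cells held 17.1, 18.6 and 17.4 CPM, against 15.1, 11.7 and 19.8 CPM in Hif1a Ahr flox cells. These groups overlapped, with a log2 change of 0.19 (-0.19 to 0.57; adjusted p = 0.471, edgeR).

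Bid (ENSMUSG00000004446, chromosome 6) encodes the BH3-only protein that caspase-8, and in target cells granzyme B, cut to an active fragment. Hif1a KO libraries held 46.4, 37.5 and 49.6 CPM, against 63.2, 54.8 and 62.2 CPM in Hif1a flox cells. Each Hif1a KO library was below each Hif1a flox library, and Bid fell by 0.43 ± 0.13 (log2, SE; adjusted p = 0.0190, edgeR). That call was lost without Hif1a KO replicate 2 (0.0984), Hif1a flox replicate 1 (0.0684) or Hif1a flox replicate 3 (0.0625) and with no filter on low counts (0.0846). Ahr KO libraries held 64.4, 75.6 and 68.3 CPM, against 43.0, 61.8 and 51.0 CPM in Ahr flox cells. The KO libraries were the higher ones in this line. The log2 change of 0.42 ± 0.13 (SE; 0.13 to 0.70) missed the threshold (adjusted p = 0.0730, edgeR), and passed it without Ahr flox replicate 2 (0.0174), with DESeq2 (0.0284) and with library totals alone (0.0437). Libraries of Hif1a Ahr KO cells held 63.9, 69.3 and 62.3 CPM, against 42.9, 59.9 and 53.2 CPM in Hif1a Ahr flox cells. All 3 were again above the flox libraries, with a log2 change of 0.32 (0.04 to 0.61; adjusted p = 0.0769, edgeR), called without Hif1a Ahr flox replicate 2 (0.0320) and with library totals alone (0.0155). Bid is overlapped on the opposite strand by Bcl2l13, which was called in no comparison, with log2 changes of -0.05 in Hif1a KO, 0.11 in Ahr KO and 0.11 in Hif1a Ahr KO cells. This overlap is of whole gene bodies, and whether the transcripts of both genes share sequence was not checked. The strand setting of the counting is not given in the sources used here, and a part of Bcl2l13 reads in the Bid counts was not tested.

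Bbc3 encodes PUMA, a BH3-only protein and a direct p53 target, and it was called in no line. It averaged 19.9 ± 2.42 CPM in Hif1a KO and 20.1 ± 2.33 CPM in Hif1a flox cells (SD, n = 3 each). In the Ahr line it averaged 22.1 ± 2.35 CPM in Ahr KO and 22 ± 0.238 CPM in Ahr flox cells, and in the third line 18.1 ± 2.09 CPM in Hif1a Ahr KO and 19.5 ± 3.58 CPM in Hif1a Ahr flox cells (SD, n = 3 each). The 95% intervals of its log2 change ran from -0.28 to 0.26, from -0.26 to 0.27 and from -0.38 to 0.17. Changes smaller than these bounds were not resolved.

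Of the guardians, Bcl2l1 fell in Hif1a KO cells, Mcl1 fell in Hif1a Ahr KO cells, and Bcl2 was called in no line. Bcl2l1 (ENSMUSG00000007659, chromosome 2) encodes BCL-XL. Hif1a KO libraries held 71.4, 68.1 and 68.1 CPM, against 81.8, 81.0 and 87.4 CPM in Hif1a flox cells. The groups were apart and tight, and Bcl2l1 fell by 0.27 ± 0.08 (log2, SE; 95% interval -0.44 to -0.10; adjusted p = 0.0122, edgeR), or 17.1%. Leaving out Hif1a flox replicate 3 ended the call (0.0588), as did scaling with library totals alone (0.0814). In the Ahr line Bcl2l1 averaged 76.9 ± 4.45 CPM in Ahr KO and 78.2 ± 10.8 CPM in Ahr flox cells (SD, n = 3 each; adjusted p = 0.914, edgeR). In the third line it averaged 74.9 ± 4.67 CPM in Hif1a Ahr KO and 80.2 ± 1.25 CPM in Hif1a Ahr flox cells (SD, n = 3 each; adjusted p = 0.375, edgeR).

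Mcl1 (ENSMUSG00000038612, chromosome 3) encodes the short-lived guardian MCL-1. Its Hif1a Ahr KO libraries held 252, 225 and 242 CPM, against 269, 272 and 303 CPM in Hif1a Ahr flox cells. No library of the pair of groups overlapped, and Mcl1 fell by 0.23 ± 0.08 (log2, SE; adjusted p = 0.0443, edgeR), or 14.9%. This was the call closest to the threshold. It was lost without Hif1a Ahr KO replicate 2 (0.178), Hif1a Ahr KO replicate 3 (0.0866), Hif1a Ahr flox replicate 2 (0.0551) or Hif1a Ahr flox replicate 3 (0.166), and with DESeq2's size factors (0.0502), library totals alone (0.0766) or the 6 libraries of the line alone (0.101). In Ahr KO cells Mcl1 held 230.5, 271 and 241 CPM, against 259, 291 and 285 CPM in Ahr flox cells, which overlapped (log2 change -0.17; adjusted p = 0.282, edgeR). Hif1a KO cells had 314, 303 and 258 CPM and Hif1a flox cells 296, 266 and 266 CPM, which overlapped too (0.08; adjusted p = 0.510, edgeR).

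Bcl2, the founding guardian, averaged 407 ± 32.2 CPM in Hif1a KO and 397 ± 25.3 CPM in Hif1a flox cells (SD, n = 3 each). It averaged 408 ± 15 CPM in Ahr KO and 381 ± 26.8 CPM in Ahr flox cells, and 418 ± 14.4 CPM in Hif1a Ahr KO and 374 ± 42.2 CPM in Hif1a Ahr flox cells (SD, n = 3 each). The Hif1a Ahr KO libraries, at 409.9 CPM or more, were just above the highest Hif1a Ahr flox library at 408 CPM. The 95% intervals of the log2 change were -0.14 to 0.21, -0.08 to 0.28 and -0.01 to 0.34 in Hif1a KO, Ahr KO and Hif1a Ahr KO cells.

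Bcl2a1b is 1 of the mouse copies of the gene of A1, a guardian induced by NF-kappaB. It averaged 16.2 ± 1.05 CPM in Hif1a KO and 20.4 ± 1.75 CPM in Hif1a flox cells (SD, n = 3 each), without overlap (log2 change -0.34 ± 0.17, SE; adjusted p = 0.145, edgeR). With the 6 libraries of that line alone the change was -0.34 and was called (adjusted p = 0.0125). Of 14 alternatives, among them a sum of the Bcl2a1 copies, 2 gave a call. The Bcl2a1b change ranged from -0.40 to -0.13 over these. Its smallest size, -0.13, came with the copies summed, which gave no call, while leaving out 1 library kept it between -0.40 and -0.28. In the Ahr line it averaged 24 ± 2.54 CPM in Ahr KO and 19.3 ± 3.09 CPM in Ahr flox cells, and in the third line 20.5 ± 3.03 CPM in Hif1a Ahr KO and 22.5 ± 6.83 CPM in Hif1a Ahr flox cells (SD, n = 3 each). These groups overlapped, with adjusted p of 0.328 and 0.592 (edgeR). The near-identical Bcl2a1d had group means of 18.2 to 19.7 CPM and was called in no line. Its log2 changes were 0.07 in Hif1a KO, 0.02 in Ahr KO and -0.03 in Hif1a Ahr KO cells. Bcl2a1a and Bcl2a1c stayed below 0.104 CPM in every library, and the split of counts among the copies is uncertain.

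The executioners Bax and Bak1 were called in no line. Bax held 115, 102 and 107 CPM in Hif1a KO cells, against 88.4, 90.3 and 98.9 CPM in Hif1a flox cells. The KO libraries were the higher ones, with a log2 change of 0.22 ± 0.09 (SE; adjusted p = 0.0725, edgeR) that passed the threshold with library totals alone (0.0126) or with the 6 libraries of the line alone (0.0235). Hif1a Ahr KO libraries held 107, 121 and 114 CPM, against 86.6, 89.2 and 119 CPM in Hif1a Ahr flox cells. A single high library, Hif1a Ahr flox replicate 3, made these groups overlap (log2 change 0.21; adjusted p = 0.0877, edgeR), and without it the change was 0.37 (adjusted p = 5.91e-04). Library totals alone also gave a call there (0.0496). In the Ahr line Bax averaged 89.0 ± 1.72 CPM in Ahr KO and 94.1 ± 3.72 CPM in Ahr flox cells (SD, n = 3 each; adjusted p = 0.706, edgeR).

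Bak1 averaged 113 ± 8.74 CPM in Hif1a KO and 122 ± 11.3 CPM in Hif1a flox cells (SD, n = 3 each), and the libraries overlapped. It held 124, 136 and 128 CPM in Ahr KO cells, against 107, 110.2 and 119 CPM in Ahr flox cells. Those groups did not overlap, with a log2 change of 0.20 ± 0.08 (SE; adjusted p = 0.139, edgeR). In the third line it averaged 128 ± 9.85 CPM in Hif1a Ahr KO and 114 ± 5.88 CPM in Hif1a Ahr flox cells (SD, n = 3 each; log2 change 0.17; adjusted p = 0.118, edgeR), a call gained with library totals alone (0.0269).

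With same-numbered libraries of a line taken as pairs, 6 of the 10 genes were called in Hif1a KO and 5 in Ahr KO cells. Added in Hif1a KO cells were Bcl2a1b, lower (-0.33; adjusted p = 0.0145), and Bax, higher (0.22; adjusted p = 0.0428). Added in Ahr KO cells were Bid (0.43; adjusted p = 0.00261), Bak1 (0.20; adjusted p = 0.0172) and Bcl2a1b (0.32; adjusted p = 0.0430), all higher. The same fit called 2421 genes in Ahr KO cells in all, against 1157 without pairs, and 6800 in Hif1a KO cells, against 5920.

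**Figure D2:**
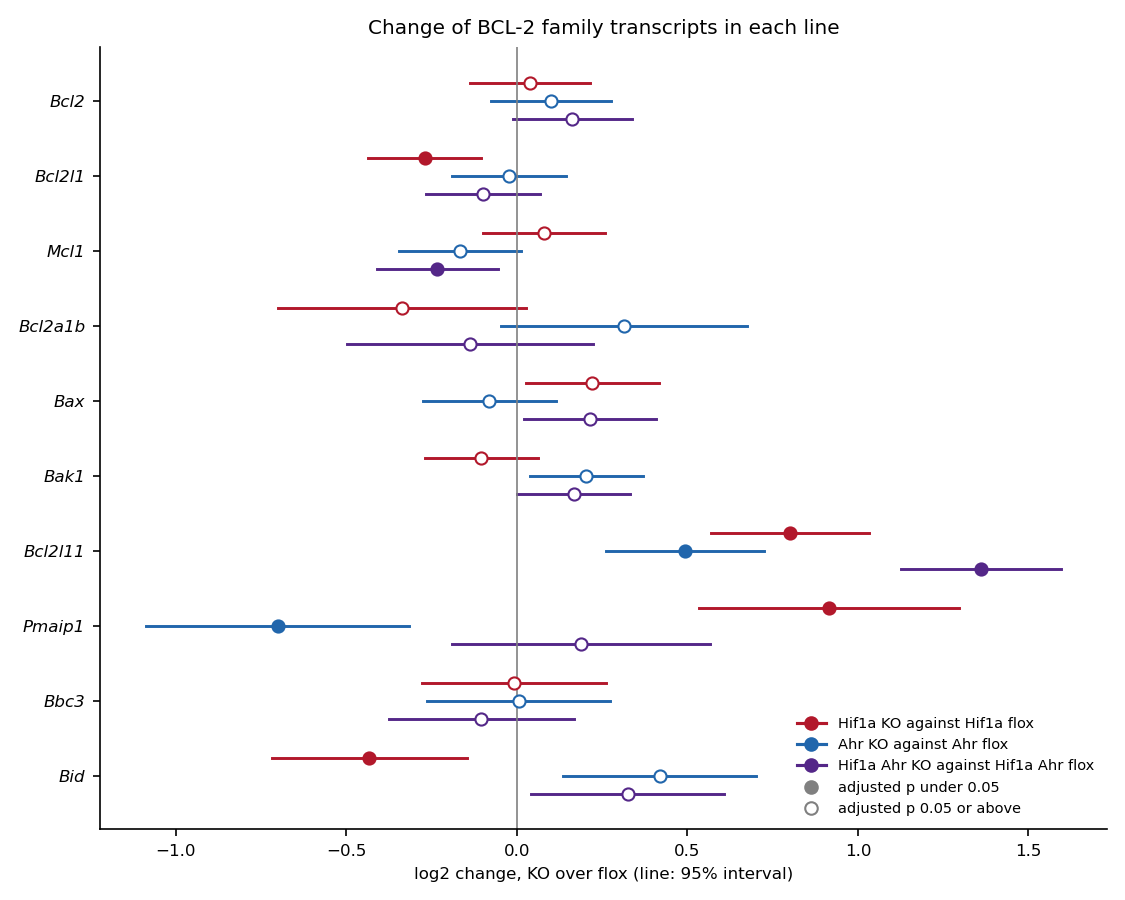
log2 change of each gene, KO over flox (x axis), for the Hif1a line, the Ahr line and the Hif1a Ahr line (colours); lines are 95% intervals and filled points passed an adjusted p of 0.05. Bcl2l11 is filled and right of 0 in all 3 lines, at 0.80, 0.49 and 1.36, and Pmaip1 lies on opposite sides of 0 in Hif1a KO and Ahr KO cells.

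The ratio of Bcl2l11 to guardian transcripts was higher in each KO group than in the flox group of that line. These are ratios of estimated counts within a library without correction for length, so each is compared between groups only, and no test was run on them. Bcl2l11 over Bcl2 was 0.560, 0.505 and 0.513 in Hif1a KO libraries, against 0.326, 0.301 and 0.303 in Hif1a flox libraries. It was 0.466, 0.424 and 0.413 in Ahr KO libraries, against 0.342, 0.335 and 0.314 in Ahr flox libraries. Among Hif1a Ahr KO libraries it was 0.621, 0.596 and 0.821, against 0.291, 0.264 and 0.344 in Hif1a Ahr flox libraries. No KO library overlapped a flox library of its line. Bcl2l11 over Mcl1 averaged 0.736 ± 0.0315 in Hif1a KO cells and 0.447 ± 0.0365 in Hif1a flox cells, 0.718 ± 0.0673 in Ahr KO and 0.453 ± 0.0355 in Ahr flox cells, and 1.19 ± 0.247 in Hif1a Ahr KO and 0.395 ± 0.0397 in Hif1a Ahr flox cells (SD, n = 3 each). Over Bcl2l1, the ratio averaged 3.09 ± 0.200 in Hif1a KO cells and 1.47 ± 0.0115 in Hif1a flox cells, 2.31 ± 0.211 in Ahr KO and 1.63 ± 0.285 in Ahr flox cells, and 3.86 ± 1.11 in Hif1a Ahr KO and 1.39 ± 0.126 in Hif1a Ahr flox cells (SD, n = 3 each). Hif1a Ahr KO cells thus had the highest mean in each of the 3 ratios, and replicate 3 of that group the highest single value of each.

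**Figure D3:**
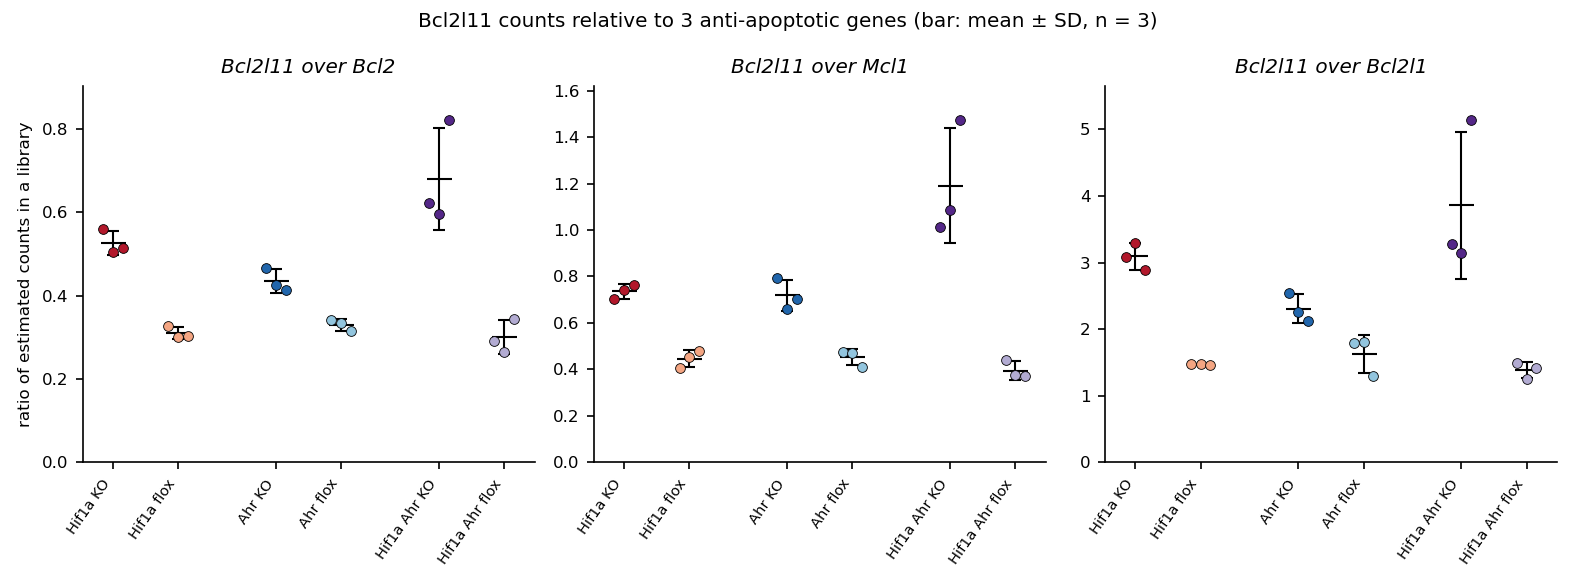
Ratio of Bcl2l11 counts to Bcl2, Mcl1 and Bcl2l1 counts in a library (y axes) by group (x axis); points are libraries and bars the mean ± SD of 3. In all 3 ratios the KO means lie above the flox means, with Hif1a Ahr KO highest at 0.679, 1.19 and 3.86.

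The KO effects of the 3 lines were then compared with one another, each as a difference of log2 changes. The Bcl2l11 effect was larger in the Hif1a Ahr line than in the Hif1a line by 0.56 ± 0.16 (log2, SE; adjusted p = 0.0312, edgeR) and larger than in the Ahr line by 0.87 ± 0.16 (adjusted p = 8.62e-04, edgeR). Of the 10 genes, 2 were called in the first of these contrasts, where 9.65% of all genes were called, and 2 in the second, where 16.4% were. Bid was the other in the first, with an effect 0.76 ± 0.19 higher in the Hif1a Ahr line than in the Hif1a line (adjusted p = 0.0208, edgeR). Pmaip1 was the other in the second, with an effect 0.89 ± 0.26 higher in the Hif1a Ahr line than in the Ahr line (adjusted p = 0.0251, edgeR).

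Between the Hif1a effect and the Ahr effect, 3 of the 10 genes differed, where 32.4% of all genes did. The Pmaip1 effect was 1.62 ± 0.26 higher in the Hif1a line than in the Ahr line (log2, SE; adjusted p = 1.54e-04, edgeR), and the Bid effect differed by -0.85 ± 0.19 (adjusted p = 0.00249, edgeR). The Bak1 effect differed by -0.31 ± 0.11 (adjusted p = 0.0414, edgeR), and Bcl2a1b came close with -0.65 ± 0.24 (adjusted p = 0.0502, edgeR). It passed with DESeq2 (0.0234), limma voom (0.0473) and DESeq2's size factors in edgeR (0.0469). Of 19 alternatives run for it, among them a sum of the Bcl2a1 copies, 6 gave a call. The Bcl2a1b difference ranged from -0.78 to -0.31 over these. Its smallest size, -0.31, came with the copies summed, which gave no call, while leaving out 1 library kept it between -0.78 and -0.57. Bcl2l11 did not pass this contrast (0.31; 95% interval -0.02 to 0.63; adjusted p = 0.145, edgeR). With same-numbered libraries as pairs 6 genes were called, adding Bcl2a1b (adjusted p = 0.00204), Bcl2l1 (0.0329) and Mcl1 (0.0413). The genes called in all by that fit for this contrast are not given here.

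Several of these differences rested on single libraries. The Bcl2l11 difference between the Hif1a Ahr and Hif1a lines missed the threshold without Hif1a KO replicate 1 (0.0514), 2 (0.0554) or 3 (0.0632), without Hif1a flox replicate 1 (0.0594) or 3 (0.0751), without Hif1a Ahr KO replicate 3 (0.0532, with a difference of 0.37), without Hif1a Ahr flox replicate 2 (0.0501) or 3 (0.0518), and with library totals alone (0.0671). The Bid difference of the same contrast was lost without Hif1a KO replicate 2 (0.0606), Hif1a flox replicate 1 (0.0562) or 3 (0.0541), Hif1a Ahr KO replicate 2 (0.0609) or Hif1a Ahr flox replicate 1 (0.0558), and with no filter on low counts (0.0784). The Pmaip1 difference between the Hif1a Ahr and Ahr lines was lost without Ahr KO replicate 2 (0.0675) or 3 (0.0651), Ahr flox replicate 1 (0.0705) or 3 (0.0572), Hif1a Ahr KO replicate 2 (0.0579) or Hif1a Ahr flox replicate 2 (0.0552), and with no filter on low counts (0.0861). The Bak1 difference between the Hif1a and Ahr effects was lost without Hif1a KO replicate 1 (0.0708) or 2 (0.118), Hif1a flox replicate 1 (0.0680) or 3 (0.129), Ahr KO replicate 2 (0.106) or 3 (0.0643), or Ahr flox replicate 1 (0.0998) or 2 (0.0760). It was also lost with library totals alone (0.210) and with no filter on low counts (0.0606). The other 3 differences, of Bcl2l11 between the Hif1a Ahr and Ahr lines and of Pmaip1 and Bid between the Hif1a and Ahr lines, kept their call in all 18 alternatives run for each. Leaving out 1 library also gave calls that the full set lacked. Without Hif1a KO replicate 3, Mcl1 differed between the Hif1a Ahr and Hif1a lines (0.0406) and between the Hif1a and Ahr lines (0.0407). Without Hif1a Ahr flox replicate 2 the Pmaip1 effect differed between the Hif1a Ahr and Hif1a lines (0.0171), and without Hif1a Ahr flox replicate 3 the Bax effect differed between the Hif1a Ahr and Ahr lines (0.00233). Between the Hif1a and Ahr effects, Bcl2a1b passed without Ahr KO replicate 2 (0.0432) or Ahr flox replicate 3 (0.0250), and Bcl2l1 without Ahr flox replicate 3 (0.0137).

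In cells that lacked both genes, none of the 10 departed by test from the added Hif1a and Ahr effects in edgeR, limma voom or DESeq2, and none had an unadjusted p under 0.05. For Bcl2l11 the departure was 0.07 (log2; 95% interval -0.33 to 0.47), and departures within that interval were not resolved. Over all genes 6 were called, or 0.0358%. The 3 flox groups were compared with one another as well, and none of the 10 genes was called by any of the 3 tools, with unadjusted p of 0.105 or more and adjusted p of 0.753 or more (edgeR). In all 41 genes, or 0.245%, were called there.

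Around the 10 genes, 7 lists of the death machinery and its inputs were counted. Their counts stand beside a background over all genes of 17.6% higher and 17.8% lower in Hif1a KO, 2.13% higher and 4.78% lower in Ahr KO, and 14.8% higher and 16.5% lower in Hif1a Ahr KO cells. Of 11 tested BCL-2 family genes outside the 10, 1 rose and 2 fell in Hif1a KO cells, none was called in Ahr KO cells, and 2 rose and 2 fell in Hif1a Ahr KO cells. Their median log2 changes were -0.05, -0.08 and -0.14, against -0.01, 0.00 and -0.02 over all genes. Bnip3, a mitophagy receptor with a BH3-like motif, averaged 27.3 ± 6.65 CPM in Hif1a KO and 397 ± 33.8 CPM in Hif1a flox cells (SD, n = 3 each; log2 change -3.86; adjusted p = 3.29e-09, edgeR). It averaged 36.1 ± 10.2 CPM in Hif1a Ahr KO and 362 ± 44.3 CPM in Hif1a Ahr flox cells (SD, n = 3 each; log2 change -3.33; adjusted p = 1.25e-08, edgeR). In the Ahr line it averaged 449 ± 21.4 CPM in Ahr KO and 409 ± 45.1 CPM in Ahr flox cells (SD, n = 3 each; log2 change 0.13; adjusted p = 0.766, edgeR). Its relative Bnip3l fell by 1.45 in Hif1a KO and 1.53 in Hif1a Ahr KO cells. Bcl2l12 rose by 0.28 and 0.33 in these groups, and the guardian Bcl2l2, which encodes BCL-W, rose by 0.18 in Hif1a Ahr KO cells (adjusted p = 0.0483, edgeR). The further BH3-only genes Bad, Bmf, Bik and Hrk were called in no line. Bmf came nearest, with 6.87 ± 1.45 CPM in Hif1a Ahr KO and 11.3 ± 2.5 CPM in Hif1a Ahr flox cells (SD, n = 3 each; adjusted p = 0.0546, edgeR).

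Downstream of BAX and BAK, 12 genes of the apoptosome, the caspases and the nucleases were counted: 2 rose and 2 fell in Hif1a KO, and 1 rose and 5 fell in Hif1a Ahr KO cells. Apaf1, the scaffold of the apoptosome, rose by 0.28, and Cycs, which encodes cytochrome c, by 0.26 in Hif1a KO cells, while the nuclease gene Endog fell by 1.1. Among Hif1a Ahr KO changes, Casp6 fell by 0.44 and Endog by 0.73, and Casp2 rose by 0.32. Of 7 genes of the IAP proteins, which hold caspases back, and their antagonists, 4 rose and 2 fell in Hif1a KO cells, 1 fell in Ahr KO cells and 1 fell in Hif1a Ahr KO cells. Birc3 fell by 0.54 in Hif1a KO and by 0.38 in Hif1a Ahr KO cells. Birc5, which encodes survivin and is a cell division gene, rose by 0.50 in Hif1a KO and fell by 0.43 in Ahr KO cells.

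Of 10 death receptor genes 4 rose and 3 fell in Hif1a KO cells, none was called in Ahr KO cells, and 1 rose and 3 fell in Hif1a Ahr KO cells. Cflar, which encodes the caspase-8 inhibitor c-FLIP, fell by 0.55 in Hif1a KO and by 0.33 in Hif1a Ahr KO cells. Fasl, the death ligand of killer cells, rose by 0.46 and Casp8 fell by 0.35 in Hif1a Ahr KO cells. In Hif1a KO cells Tnfrsf1a rose by 0.39, and Tradd and Ripk1 fell by 0.37 and 0.27.

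Of 14 genes of p53 and its targets, a list to which Pmaip1 and Bbc3 are linked by function, 9 rose and none fell in Hif1a KO cells (median 0.45). In Ahr KO cells 2 fell and none rose (median -0.11), and in Hif1a Ahr KO cells 6 rose and none fell (median 0.23). Zmat3 rose by 1.30 in Hif1a KO and by 1.49 in Hif1a Ahr KO cells, and Sesn2 by 0.67 and 0.94. Trp53inp1 rose by 1.15 in Hif1a KO cells and by 0.33 in Hif1a Ahr KO cells, and fell by 0.49 in Ahr KO cells. Sesn1 rose by 0.69 in Hif1a KO cells and fell by 0.73 in Ahr KO cells. Trp53 itself was called in no line, nor was Cdkn1a, a classical p53 target.

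Of 13 tested regulators of BCL-2 proteins, 1 rose and 2 fell in Hif1a KO cells, 2 fell in Ahr KO cells, and 4 rose and 2 fell in Hif1a Ahr KO cells. Foxo3, a transcription factor that activates Bcl2l11, averaged 75.7 ± 9.78 CPM in Hif1a KO and 58.6 ± 2.26 CPM in Hif1a flox cells (SD, n = 3 each; log2 change 0.37; adjusted p = 0.00844, edgeR). It averaged 48.7 ± 3.74 CPM in Ahr KO and 66.9 ± 3.74 CPM in Ahr flox cells (SD, n = 3 each; log2 change -0.46; adjusted p = 0.0110, edgeR). Hif1a Ahr KO cells also had less (-0.27; adjusted p = 0.0497, edgeR), and Foxo1 fell by 0.39 in Ahr KO cells. Bcl2l11 was higher in all 3 KO groups, and a part of Foxo3 or Foxo1 in its level was not tested. Prelid1, which encodes a mitochondrial lipid transfer protein, fell by 1.26 in Hif1a KO and by 1.30 in Hif1a Ahr KO cells.

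The IL-2 and IL-15 survival signal, which supports guardians in NK cells, was counted in 15 genes: 1 rose and 6 fell in Hif1a KO, 1 fell in Ahr KO, and 2 rose and 4 fell in Hif1a Ahr KO cells. The kinase gene Jak3 averaged 109.8 ± 13.7 CPM in Hif1a KO and 296 ± 5.56 CPM in Hif1a flox cells (SD, n = 3 each; log2 change -1.43; adjusted p = 9.67e-10, edgeR). It fell by 1.31 in Hif1a Ahr KO cells. Nfil3, a transcription factor of NK cell development, fell by 1.16 and 0.70 in these groups. Pim2, a survival kinase gene induced by STAT5, fell in all 3 lines, by 0.78 in Hif1a KO, 0.38 in Ahr KO and 1.23 in Hif1a Ahr KO cells.

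**Figure D4:**
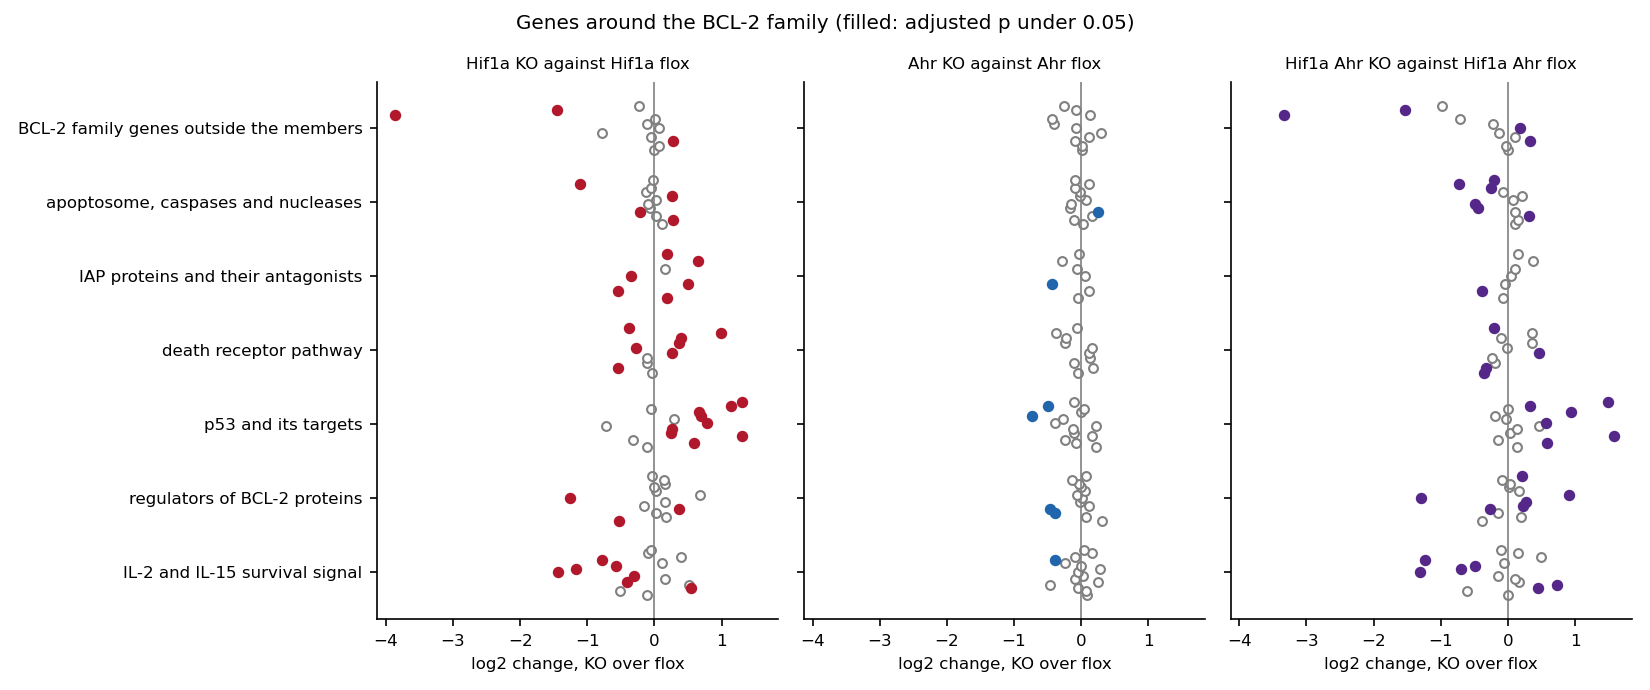
log2 change, KO over flox (x axis), of every tested gene of 7 lists (rows) in the Hif1a line, the Ahr line and the Hif1a Ahr line (panels); filled points passed an adjusted p of 0.05. Most points lie between -1 and 1, Bnip3 is the point furthest left at -3.86 and -3.33, and the filled points of the p53 row lie right of 0 in the panels with a Hif1a deletion.

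For each member called in a KO comparison, the tested genes with the most similar course over the 18 libraries were sought among 9359 candidates, by the root mean square difference of mean-centred log2 CPM. Nearest to Bcl2l11, at 0.16 each beside its own SD of 0.51, were Fam53b and Tmem50b. Fam53b rose by 0.67, 0.47 and 1.16 in Hif1a KO, Ahr KO and Hif1a Ahr KO cells. Nearest to Pmaip1 was Psrc1 (0.09), with log2 changes of 0.84 in Hif1a KO, -0.71 in Ahr KO and 0.10 in Hif1a Ahr KO cells. Gimap9 followed (0.14). Nr4a3 and H13 lay nearest to Bid (0.10 each), Sin3b and Mrpl24 to Bcl2l1 (0.07 each), and Ramac and Ubb to Mcl1 (0.06 each). Bcl2l1 and Mcl1 varied little themselves, with an SD of 0.12 and 0.14.

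On the chromosome, the 2 tested genes to either side of each member make 40 neighbours, of which 16, 6 and 19 were called in Hif1a KO, Ahr KO and Hif1a Ahr KO cells, where 35.4%, 6.91% and 31.3% of all genes were. None of the 4 neighbours of Bcl2l11 was called higher in all 3 lines. Bub1, a spindle checkpoint gene, rose by 0.53 in Hif1a KO and fell by 0.48 in Ahr KO cells. Acoxl averaged 0.839 ± 0.408 CPM in Hif1a Ahr KO and 2.17 ± 0.12 CPM in Hif1a Ahr flox cells (SD, n = 3 each; log2 change -1.37; adjusted p = 5.89e-04, edgeR), and fell by 0.86 in Ahr KO cells. Gm14009 rose by 1.26 in Ahr KO and by 1.17 in Hif1a Ahr KO cells, at levels under 1 CPM.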

How the data were processed

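RNA from 18 libraries of cultured mouse NK cells was measured by strand-specific mRNA sequencing, per the labels' protocols. Per the submitters' processing notes the authors used Trim Galore 0.6.4, kallisto 0.4.6, edgeR 3.17 and GRCm39; the roles, settings and annotation are not given in the sources used here. The deposited count files hold estimated counts per gene, not normalised, with 65.5% to 67.8% of values above 0 not whole. The deposited CPM files hold log2 CPM, which was recomputed from those counts with a prior count of 2 and served only as a check.

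Estimated counts were rounded and analysed with edgeR 4.0.16 under R 4.3.3. Libraries were scaled by TMM (factors 0.941 to 1.06), genes filtered with filterByExpr by group, and a mean fitted to each of the 6 groups with robust quasi-likelihood dispersions, which left 12 residual degrees of freedom at a common biological variation of 0.117. Tests were 2-sided quasi-likelihood F tests. p-values were adjusted by Benjamini-Hochberg within a comparison over all 16743 genes, with 0.05 as threshold. Intervals are at 95%. Alternatives used DESeq2 1.42.0 and limma 3.58.1 (voom) and others named in the Results and the closing section. Scripts were tested on simulated data. Symbols came from a gene name table (52029 of 56953 identifiers matched). Transcript lengths and overlapping genes came from GENCODE on GRCm38, and chromosomes, gene order and promoters from RefSeq.

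The members and lists were chosen with earlier results of these data known. Named are all 10 members, up to 4 called genes per list and comparison by adjusted p, the 2 nearest genes by likeness (mean of at least 5 CPM) and 2 neighbours on each side. A gene so named may be given in the other comparisons too. A few genes taken by these rules are not reported. Bad, Bik, Bmf, Hrk, Trp53 and Cdkn1a are named outside this rule, with their values seen.

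The main fit took no account of replicate numbers, and a fit with a replicate block was run as an alternative in all lines. Replicate numbers were read as pairs where every same-numbered KO and flox pair of a line deviated together. This meant a correlation above 0.1 of their deviations from the group means. Correlations were 0.296 to 0.53 in the Hif1a line and 0.333 to 0.534 in the Ahr line, which met this. The Hif1a Ahr line did not, with 0.067, 0.448 and 0.27 for replicates 1, 2 and 3. The chi-square of replicate counts per degree of freedom was 14.5 to 59.9, well above counting error.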

Additional observations from a re-analysis of the deposited data

Results flagged for a closer look

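A total of 7 differences between KO effects passed a test of the difference itself (edgeR, adjusted p under 0.05). The alternatives under which a call was lost are given above. The Bcl2l11 effect was larger in the Hif1a Ahr line than in the Hif1a line by 0.56 and than in the Ahr line by 0.87, with all 3 KO groups above their flox groups. The Bid effect was higher by 0.76 in the Hif1a Ahr line than in the Hif1a line, with 3 of 3 Hif1a Ahr KO libraries above and 3 of 3 Hif1a KO libraries below the flox libraries of their line. The Pmaip1 effect was higher by 0.89 in the Hif1a Ahr line than in the Ahr line. Of these lines only the Ahr line had no overlap, and narrowly, with 11.1 CPM in Ahr KO replicate 1 and 11.6 CPM in Ahr flox replicate 2. Between the Hif1a and the Ahr effect, Pmaip1 differed by 1.62 and Bid by -0.85, and in both genes the 3 KO libraries lay on opposite sides of their flox libraries in these lines. Bak1 differed by -0.31, with overlapping libraries in the Hif1a line.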

How the results depend on the processing

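Of 1177 values of the 10 genes under an alternative, 1084 kept their call and direction, 52 lost a call and 41 gained one. No called value turned its direction, and 64 values called in neither fit turned sign. The Bcl2l11 calls in Hif1a KO and Hif1a Ahr KO cells held in all 13 alternatives run for each. The number of the 10 genes called moved by over 1.5 times as follows. In Hif1a Ahr KO cells it was 1 with DESeq2's size factors, 4 with library totals alone and 1 with the 6 libraries of the line alone. These fits called 5211, 5070 and 3104 genes in all, against 5242. With no filter on low counts it was 1 in Ahr KO cells (1091 genes in all). It was also 1 for the difference between the Hif1a Ahr and Hif1a effects and 1 for that between the Hif1a Ahr and Ahr effects. Library totals alone gave 5 for the Hif1a against the Ahr effect and shifted the median of all genes by 0.10 (log2) in Hif1a KO cells. With the replicate block, 5 were called in Ahr KO cells (2421 genes in all), 5 for the Hif1a Ahr against the Hif1a effect and 6 for the Hif1a against the Ahr effect. In Hif1a Ahr KO cells, whose numbers did not meet the pairing rule, the replicate block gave 5, adding Bax (0.0411), Bak1 (0.0223) and Bid (0.00448). That fit called 6242 genes in all there, against 5242. For the differences, genes called in all under an alternative are not given here, so those member counts stand without a background. The causes were not tested.

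Leaving out 1 library at a time, called genes ranged from 4785 to 5438 in Hif1a KO, 467 to 1337 in Ahr KO and 3796 to 5527 in Hif1a Ahr KO cells. Of the 10 genes, 2 to 4, 0 to 3 and 1 to 2 were called in these comparisons. For the differences the ranges were 0 to 2 (Hif1a Ahr against Hif1a), 1 to 3 (Hif1a Ahr against Ahr) and 2 to 5 (Hif1a against Ahr), and 0 to 0 for the departure from the sum and for the flox groups.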
